A study of Mus musculus with 24 samples.

Results

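The genes examined were the 77 mouse genes of the mitochondrial ribosome whose array names begin with Mrpl or Mrps and a number, out of 37325 gene names on the array. They were chosen by name alone, with pseudogene names left out. They were read by 119 of the 56605 gene probes, and all 77 stayed among the 25825 genes tested after dim probes were removed. By current assignments 50 belong to the large subunit and 26 to the small subunit, while Mrps36 is now placed in an enzyme complex and counted apart. Mrps18a and Mrps30 carry small-subunit names but sit in the large subunit and are counted there. Proteins with a counterpart in bacterial ribosomes numbered 46, and 30 are specific to mitochondria.

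The mitochondrial ribosome translates the few messages of the mitochondrial genome, which encode membrane subunits of the respiratory chain and ATP synthase. All of its proteins are encoded in the nucleus, made in the cytosol and imported, and its RNAs are made inside the organelle. In macrophages, activation by lipopolysaccharide and interferon-gamma is known to shift energy production towards glycolysis, whereas activation by interleukin-4 is known to go with greater oxidative metabolism.

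RNA came from macrophages grown from mouse bone marrow for 6 days with 20 ng/ml of the growth factor M-CSF. KO cells came from mice with floxed Slc2a1, the gene of the glucose transporter GLUT1, crossed to LysMCre (written Slc2a1M-/- in the labels), and WT cells from Slc2a1 fl/fl controls without a stated Cre. The lysozyme promoter drives this Cre in myeloid cells, and the labels give no age. Cells of both genotypes were then kept for 24 h without stimulus (M0), with 5 ng/ml LPS plus 10 ng/ml IFN-gamma (M1) or with 10 ng/ml IL-4 (M2), and each of the 6 groups had 4 biological replicates with 1 array apiece.

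All 8 macrophage markers were well above background on every array. Slc2a1 itself, read by 1 probe, differed by -0.33, 0.25 and -0.18 between KO and WT in M0, M1 and M2 on the log2 scale (limma adjusted p = 1.00, 0.583 and 1.00). The labels do not name the floxed exons, so this probe does not check the deletion. The labels name no slides, so slide and position were read from the file names. Positions 1 to 6 of each of the 3 slides held 1 array of each group and were taken as sets 1 to 3. The 6 arrays at positions 7 and 8, again 1 of each group, were pooled over the slides as a 4th set, which stood apart. There, Uty, Ddx3y and Eif2s3y of the Y chromosome did not reach well above background, whereas they did on 18 of 18 other arrays. This set is WT and KO replicate 2 in M0, replicate 3 in M1 and replicate 4 in M2. In it the median mitoribosomal gene was lower than on the other arrays of its group by 0.20 to 0.22 in M0 and 0.34 in M2 (log2), and differed by -0.01 and -0.06 in M1. Each set held every group once, so differences within sets are given beside the results. Levels below are log2 intensities relative to the 75th percentile of each array. Differences are in log2 units with the standard error of the limma fit, and a gene is called where the Benjamini-Hochberg adjusted p is under 0.05. Levels of different genes come from different probes and are not set against each other. In such bulk RNA, fewer cells of a type and less RNA per cell cannot be told apart.

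Promoters were looked at first, because several factors are known to drive nuclear genes of mitochondria: NRF1, the ETS factor GABP, YY1 and, through E-boxes, MYC. RefSeq windows on GRCm38.p6, running from 250 bases before to 50 after a gene's start, were at hand for 68 of the 77 genes in 74 windows. They were searched on both strands for the letters GCGCATGC (NRF1), CCGGAAG (ETS), AAGATGGC (YY1) and CACGTG (E-box). ETS letters were found in 33.8% of the mitoribosomal windows, against 8.86% of all 32851 windows. For NRF1 the shares were 10.8% and 2.71%, for YY1 16.2% and 2.75%, and for the E-box 9.46% and 7.15%. Some genes have more than 1 window. Counted by gene, the shares were 36.8% and 9.93% (ETS), 11.8% and 3.05% (NRF1), and 17.6% and 3.19% (YY1). For the E-box they were 7.35% and 8.09%, so its small excess was not seen by gene. Later shares are by gene. A match is a description of the letters and not of a site in use. The stretches below give the 250 bases before the start, 5′ to 3′ on the gene's strand, with matches on either strand in capitals. They are shown for Mrpl36, Mrpl17 and Mrps27, which rose with M2 in both genotypes, for Mrpl32 and Mrpl27, which rose with M1 in both, and for Mrps6, which differed most between the genotypes in M1. Every stretch but the last holds a match, so they do not show how often genes that rose carry one. Mrps28, Mrps25 and Mrps36, which also rose with M2, are not shown. No match before the start was listed for them, for lack of a window or of the letters.
Mrpl36 chr13:73330759-73331008 (plus strand): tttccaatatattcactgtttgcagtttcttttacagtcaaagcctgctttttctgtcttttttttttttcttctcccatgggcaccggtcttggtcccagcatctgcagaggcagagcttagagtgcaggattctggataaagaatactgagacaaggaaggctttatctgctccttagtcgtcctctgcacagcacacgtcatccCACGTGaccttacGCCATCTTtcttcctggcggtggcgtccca
Mrpl17 chr7:105811088-105811337 (minus strand): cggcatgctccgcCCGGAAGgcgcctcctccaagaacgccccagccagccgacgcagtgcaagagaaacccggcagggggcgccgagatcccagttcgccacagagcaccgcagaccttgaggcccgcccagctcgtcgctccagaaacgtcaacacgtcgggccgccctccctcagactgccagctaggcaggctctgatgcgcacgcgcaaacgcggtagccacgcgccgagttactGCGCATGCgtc
Mrps27 chr13:99344536-99344785 (plus strand): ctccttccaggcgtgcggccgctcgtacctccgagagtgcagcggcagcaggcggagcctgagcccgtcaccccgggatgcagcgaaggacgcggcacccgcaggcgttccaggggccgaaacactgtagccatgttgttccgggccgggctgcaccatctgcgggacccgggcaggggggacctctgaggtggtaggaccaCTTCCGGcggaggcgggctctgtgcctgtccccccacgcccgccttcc
Mrpl32 chr13:14613038-14613287 (minus strand): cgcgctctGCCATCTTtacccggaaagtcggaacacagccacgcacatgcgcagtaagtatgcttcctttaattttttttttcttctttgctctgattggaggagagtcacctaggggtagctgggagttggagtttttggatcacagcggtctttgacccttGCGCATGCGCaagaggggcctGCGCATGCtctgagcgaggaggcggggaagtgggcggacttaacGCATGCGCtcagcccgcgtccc
Mrpl27 chr11:94653541-94653790 (plus strand): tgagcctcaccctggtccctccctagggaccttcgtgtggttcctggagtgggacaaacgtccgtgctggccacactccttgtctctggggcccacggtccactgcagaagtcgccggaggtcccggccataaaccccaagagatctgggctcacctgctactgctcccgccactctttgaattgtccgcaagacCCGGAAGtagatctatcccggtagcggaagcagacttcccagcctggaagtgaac
Mrps6 chr16:92058086-92058335 (plus strand): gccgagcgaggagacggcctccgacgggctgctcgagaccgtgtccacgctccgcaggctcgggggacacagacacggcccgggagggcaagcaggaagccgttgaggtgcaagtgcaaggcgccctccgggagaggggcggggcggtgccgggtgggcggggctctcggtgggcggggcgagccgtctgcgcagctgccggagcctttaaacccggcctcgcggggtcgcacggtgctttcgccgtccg
In Mrpl36, which encodes a small zinc-binding protein of the large subunit, an E-box starts at position -43 and the YY1 letters at -30. Mrpl17 holds NRF1 letters at -11 and ETS letters at -237. Mrps27, the gene of an RNA-binding small-subunit protein, has ETS letters at -48, and Mrpl27, the counterpart of a bacterial protein near the peptidyl transferase centre, has them at -55. Mrpl32 has NRF1 letters at -87 and -85, which overlap, and at -66 and -22, with YY1 letters at -242. None of the 4 motifs was found in the stretch of Mrps6.

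The first comparison asked how the mitoribosomal genes of KO cells differ from those of WT cells after M1 activation. They moved both ways. In limma 15 of the 77 were higher and 21 lower in KO M1 than in WT M1, which is 46.8% of them. Over all genes tested 44.2% were called, 22.8% higher and 21.4% lower. The median difference was -0.15, against 0.13 over all genes. With quantile normalization, which moves the median of all genes to -0.05, 16 were higher and 28 lower, and all 36 calls were made again in the same direction. All 36 had 1 sign in all 4 sets, which hold the same arrays as the calls and so are no separate support. The arrays of the genotypes did not overlap for 40 members (51.9%), against 43.4% of all genes.

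Both subunits held genes of both kinds. In the large subunit 9 rose and 12 fell of 50 (median -0.08), and in the small subunit 5 rose and 9 fell of 26 (median -0.21). Of the 46 genes with a bacterial counterpart 9 rose and 13 fell, and of the 30 specific to mitochondria 5 rose and 8 fell. The count of lower genes rested in part on single arrays. It was 12 without KO M1 replicate 1 and 13 without WT M1 replicate 2, and 19 of the 36 calls held without any 1 array.

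**Figure D1:**
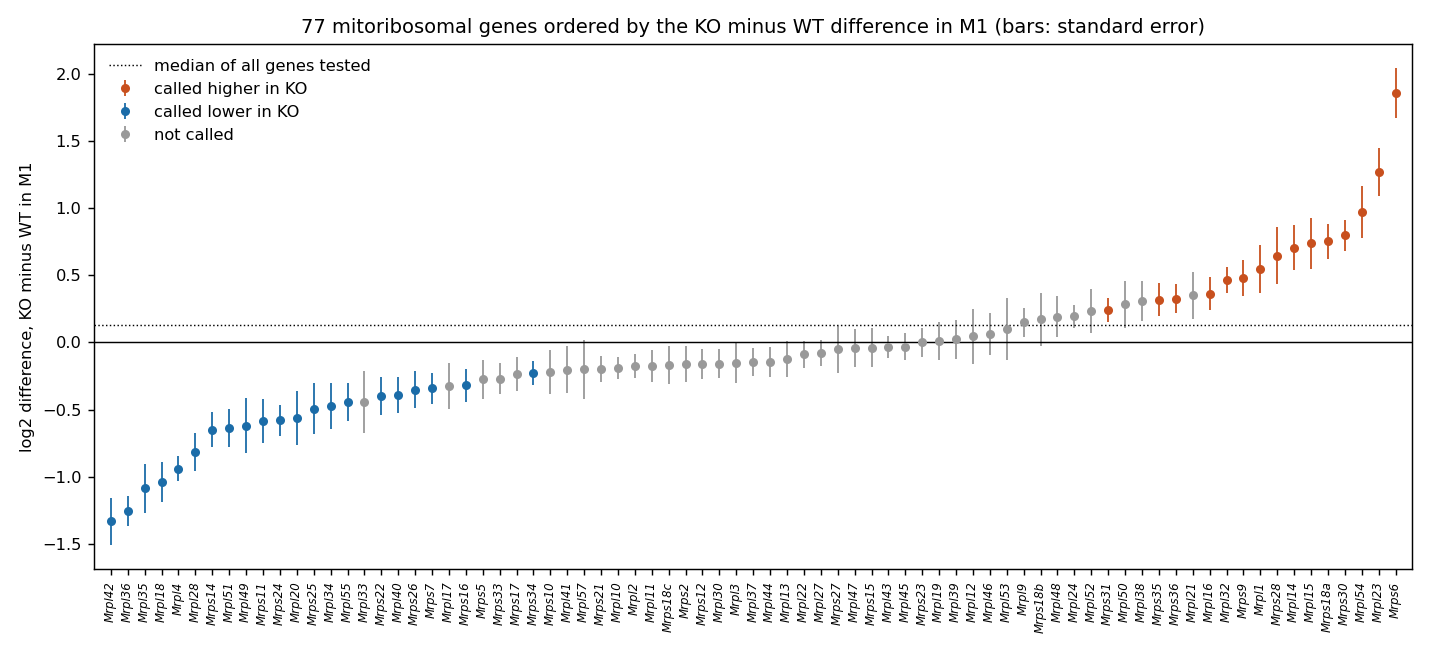
The 77 mitoribosomal genes (horizontal axis) ordered by their log2 difference between KO and WT in M1 (vertical axis), with bars for the standard error of the fit, 4 arrays in each group. Differences run from -1.33 for Mrpl42 to 1.27 for Mrpl23, with Mrps6 apart at 1.86, 21 genes called lower, 15 called higher and a dotted line at the median of all genes tested (0.13).

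Mrps6, the counterpart of bacterial ribosomal protein S6 in the small subunit, showed the largest difference. Its level in replicates 1 to 4 was 2.01, 1.93, 1.98 and 1.87 in WT M1 and 4.00, 3.81, 3.64 and 3.80 in KO M1. All 4 KO arrays lay above all WT arrays, and also above every M0 and M2 array of either genotype. The difference was 1.86 ± 0.19, a 3.63-fold higher level (limma adjusted p = 7.3e-08), and 1.65 to 1.99 in the sets. The Mrps6 probe lies on chromosome 16 (mm9 92112223 to 92112282). In RefSeq several members overlap another protein-coding gene, among them Mrpl18 (Tcp1), Mrpl27 (Eme1), Mrps18a (Rsph9) and Mrps25 (Nr2c2). Mrps6 overlaps the gene of the myo-inositol transporter Slc5a3. Slc5a3, which is no mitoribosomal gene, was at -4.97 ± 0.23 in WT M1 and -2.02 ± 0.38 in KO M1 (SD, n = 4), a difference of 2.95 (limma adjusted p = 6.3e-09). Its level in WT M1 lay far below the 75th percentile of the arrays. Whether it was above background there is not given here, so the size of its difference is uncertain.

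Mrpl23, a protein at the exit of the peptide tunnel, had the second largest rise. In WT M1 it was at 2.60, 2.43, 3.18 and 2.63, and in KO M1 at 3.81, 4.00, 4.10 and 4.02. The groups did not overlap, and it was WT M1 that stood apart, with every WT M1 array below all arrays of the other 5 groups. The difference was 1.27 ± 0.18 (limma adjusted p = 6.4e-06), and 0.92 to 1.57 in the sets. Mrpl54, a large-subunit protein specific to mitochondria, was at 3.55, 3.46, 3.36 and 3.47 in WT M1 and 4.51, 4.48, 4.26 and 4.48 in KO M1. It rose by 0.97 ± 0.19 with no overlap (limma adjusted p = 2.7e-04).

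The pair of genes with small-subunit names in the large subunit both rose. Mrps30, which was also described as a protein linked to cell death, was at 2.74, 3.14, 3.22 and 3.01 in WT M1 and 3.62, 3.92, 3.92 and 3.85 in KO M1. Mrps18a, a relative of bacterial S18, was at 3.74, 3.87, 3.72 and 3.94 in WT M1 and 4.66, 4.63, 4.39 and 4.61 in KO M1. Neither overlapped, and the differences were 0.80 ± 0.12 and 0.75 ± 0.13 (limma adjusted p = 1.1e-05 and 5.8e-05). The other S18 relatives, Mrps18b and Mrps18c of the small subunit, were at 0.17 ± 0.20 and -0.17 ± 0.14 and were not called. Mrpl15, a core protein of the large subunit, rose by 0.74 ± 0.19, from 1.80 to 2.05 on the WT arrays to 2.51 to 2.84 on the KO arrays.

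Among the genes that fell, Mrpl42, a protein specific to mitochondria, had the largest difference. It was at 3.18, 3.42, 3.73 and 3.25 in WT M1 and 1.69, 2.15, 2.4 and 2.00 in KO M1. Here KO M1 stood apart, as the lowest array of any other group was at 3.18, and the difference was -1.33 ± 0.17 (limma adjusted p = 2.3e-06). Mrpl36 was at 3.18, 3.30, 3.23 and 3.33 in WT M1 and 1.72, 2.15, 2.00 and 2.15 in KO M1. Its KO M1 arrays were likewise below all other arrays, with a difference of -1.26 ± 0.11 (limma adjusted p = 1.5e-08).

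Mrpl18, which binds 5S ribosomal RNA, fell by 1.04 ± 0.15, from 3.17, 3.19, 3.12 and 3.11 in WT M1 to 2.13, 2.15, 2.01 and 2.15 in KO M1. Mrpl4, the counterpart of bacterial L4, fell by 0.94 ± 0.09, from 4.94, 5.20, 5.10 and 5.08 to 4.01, 4.13, 4.27 and 4.16. For both genes the KO M1 arrays lay below those of WT M1 and of KO M0. Mrpl35 and Mrpl28, both with bacterial counterparts in the large subunit, fell by 1.09 ± 0.18 and 0.82 ± 0.14 with no overlap. The largest fall in the small subunit was that of Mrps14, the counterpart of bacterial S14, from 2.67, 2.74, 2.90 and 2.70 to 1.83, 2.26, 2.21 and 2.11.

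**Figure D2:**
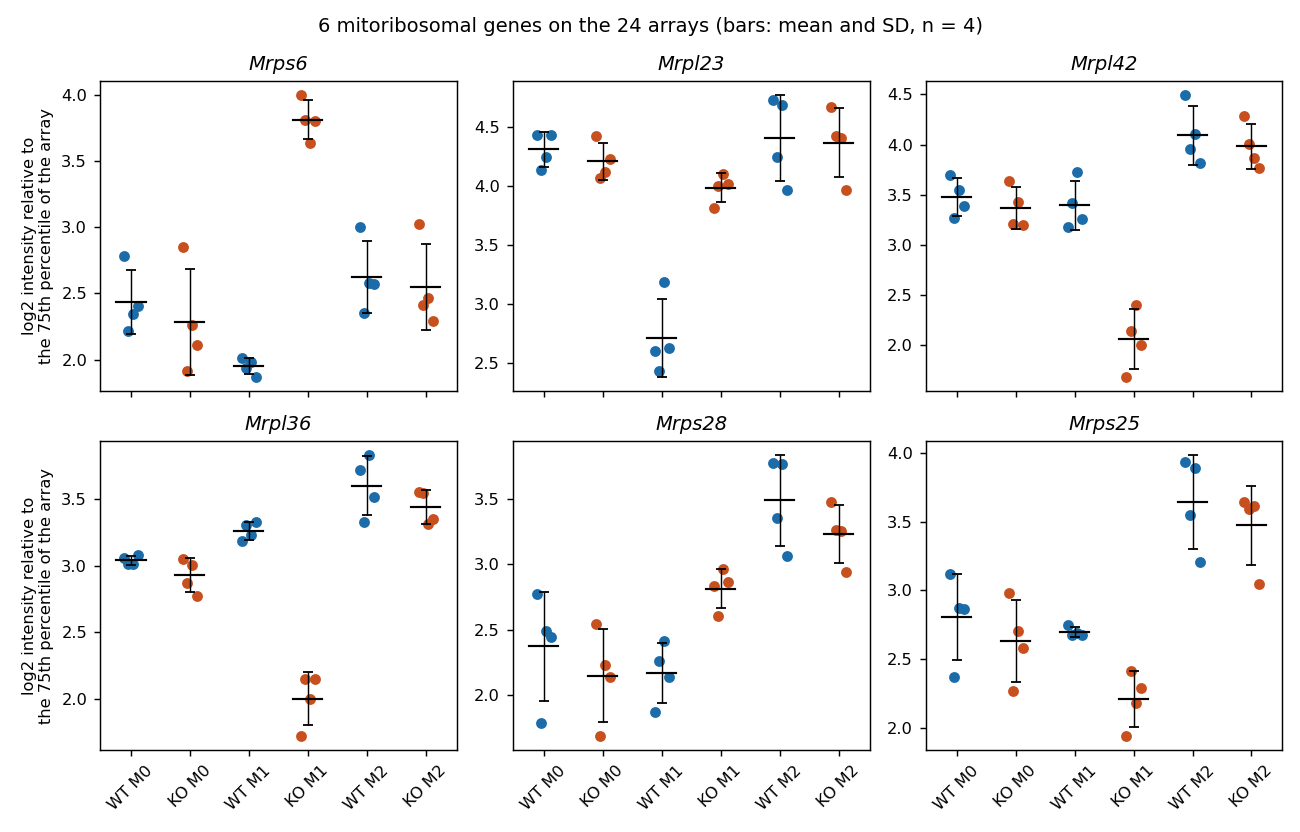
Log2 intensity relative to the 75th percentile of the array (vertical axis, not starting at 0) of 6 mitoribosomal genes in the 6 groups (horizontal axis), with 1 point per array (WT blue, KO orange) and bars for the mean and SD (n = 4). In Mrps6, Mrpl42 and Mrpl36 the KO M1 arrays stand apart from all others, in Mrpl23 the WT M1 arrays do, and Mrps28 and Mrps25 are highest in both M2 groups.

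Several genes with a known part in mitochondrial translation were not called between the genotypes in M1. Mrpl12, the stalk protein that also binds the mitochondrial RNA polymerase, was at 0.05 ± 0.21, Mrpl45, which holds the ribosome at the inner membrane, at -0.03 ± 0.10, Mrpl44, an RNA-binding protein, at -0.15 ± 0.11 and Mrps12, a protein of the decoding centre, at -0.16 ± 0.11. The adjusted p of these 4 ranged from 0.268 to 0.881. Mrpl32, a protein that matures through cleavage by an inner-membrane protease, rose by 0.47 ± 0.10 (limma adjusted p = 6.1e-04). Mrps36, now known as a subunit of an enzyme complex of the citric acid cycle, rose by 0.33 ± 0.11 (limma adjusted p = 0.0189), a call lost without WT M1 replicate 2 and without WT M1 replicate 4.

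The intensity scale of the arrays and the markers of other cells were also set side by side for the genotypes in M1. The 75th percentile was 2017 ± 253 intensity units in WT M1 and 1581 ± 88.9 in KO M1 (SD, n = 4). The summed level of 10 neutrophil markers, of which 9 were well above background on all 4 arrays of each M1 group, was 4.42 to 6.26 in WT M1 and 6.19 to 7.55 in KO M1. That of 7 dendritic cell markers was 5.251 to 6.031 in WT M1 and 6.029 to 6.666 in KO M1, with the defining marker Xcr1 not well above background in either group. The summed levels of both marker lists thus overlapped between the genotypes. The part of the intensity scale and of these markers in the result was not tested.

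M1 activation was then examined within each genotype. In WT 28 of the 77 genes rose and 3 fell, or 36.4% and 3.9% of them, where 26.1% of all genes rose and 22.0% fell. In KO 31 rose and 12 fell, or 40.3% and 15.6%, where 33.1% and 23.6% of all genes did. Over all genes 48.1% were called in WT and 56.7% in KO in either direction. The median differences were 0.20 in WT and 0.23 in KO, and those of all genes 0.04 and 0.25. The direction of the whole group depended on the scaling. With quantile normalization 17 rose and 22 fell in WT and 17 rose and 28 fell in KO, with medians of 0.01 and -0.07 and medians of all genes of -0.01 and 0.04. The 3 lower genes of WT became 7 without WT M0 replicate 2 and 11 without the 4th set. Markers of other cells moved with M1 too. The summed level of the neutrophil markers was 6.71 to 8.05 in WT M0 and 4.42 to 6.26 in WT M1, and overlapped in KO (6.23 to 8.28 and 6.19 to 7.55). That of the dendritic cell markers was 5.28 to 5.71 in KO M0 and 6.03 to 6.67 in KO M1, and overlapped in WT. Their part in the M1 results was not tested.

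Of the genes that rose, 19 were shared, which is 67.9% of the WT list and 61.3% of the KO list. With quantile normalization 10 were shared of 17 in each list, Mrpl27, Mrpl32, Mrpl38, Mrpl39, Mrpl45, Mrpl47, Mrpl52 and Mrps18b among them. Mrpl27 was the largest rise in WT. It was at 3.95, 4.01, 4.14 and 3.99 in WT M0 and 4.87, 4.92, 4.91 and 5.02 in WT M1, and in KO it went from 4.07, 3.93, 3.97 and 3.82 to 5.05, 4.80, 4.71 and 4.84. M0 and M1 did not overlap in either genotype, as held for 45.3% of all genes in WT and 51.3% in KO, and in WT the difference was 0.90 ± 0.10 (limma adjusted p = 1.8e-07). Mrpl32 rose by 0.52 ± 0.10 in WT and 1.13 ± 0.10 in KO, Mrpl38 by 0.65 ± 0.15 and 1.17 ± 0.15, and the membrane anchor Mrpl45 by 0.55 ± 0.10 and 0.66 ± 0.10. Mrps18b rose by 0.73 ± 0.20 and 1.13 ± 0.20, Mrps18c by 0.55 ± 0.14 and 0.44 ± 0.14, and Mrps2, the counterpart of bacterial S2, by 0.45 ± 0.14 and 0.41 ± 0.14. With quantile normalization the calls of Mrps2 in both genotypes and of Mrps18c in KO were lost. Mrpl52 and Mrpl39, both specific to mitochondria, rose by 0.76 ± 0.16 and 0.66 ± 0.15 in WT. So did Mrpl47, by 0.65 ± 0.14.

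No gene was called lower in both genotypes, but with quantile normalization 13 were, of 22 in WT and 28 in KO. Mrpl23 fell by 1.60 ± 0.18 in WT (limma adjusted p = 3.2e-07) and was at -0.23 in KO. Its WT level went from 4.44, 4.13, 4.24 and 4.43 in M0 to the M1 values above, with no overlap. Mrps6 and Mrps15, both of the small subunit, fell by 0.49 ± 0.19 and 0.48 ± 0.14 in WT, and Mrps15 was at -0.28 ± 0.14 in KO, not called. The Mrps6 call (limma adjusted p = 0.0387) was lost in 7 of the fits that left out 1 WT M0 or M1 array. The 12 genes that fell in KO were led by Mrpl42 (-1.31 ± 0.17), Mrpl28 (-0.93 ± 0.14), Mrpl36 (-0.92 ± 0.11) and Mrpl35 (-0.92 ± 0.18), followed by Mrpl33 (-0.73 ± 0.23, and -0.43 ± 0.23 in WT, not called) and Mrps14 (-0.64 ± 0.13).

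**Figure D3:**
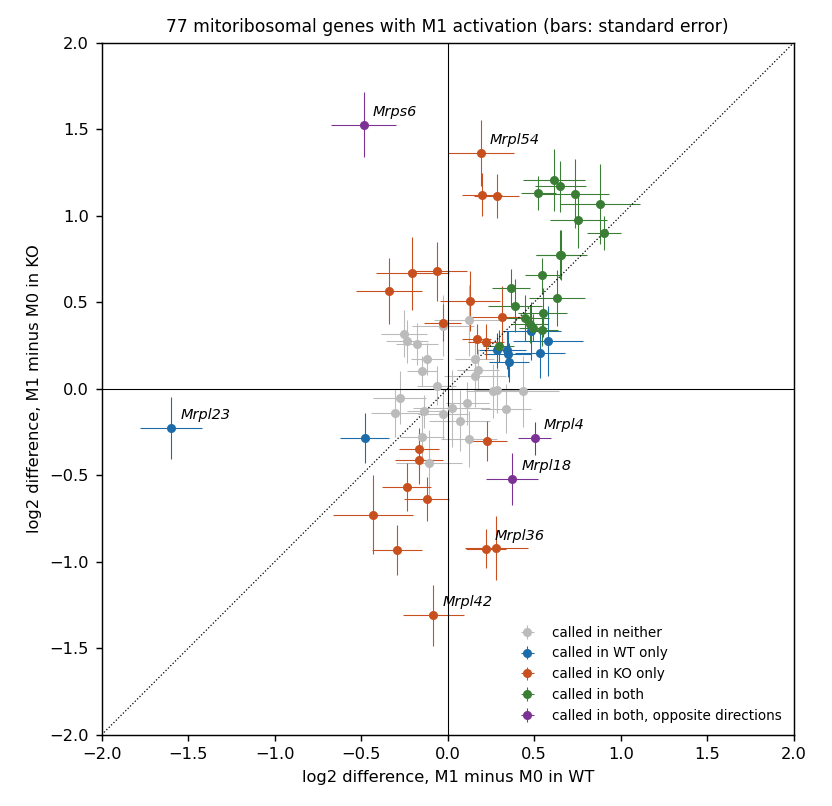
Log2 difference between M1 and M0 of the 77 mitoribosomal genes in WT (horizontal axis) and KO (vertical axis), with bars for the standard error and a dotted line of equal values; colours give the genotypes in which a gene was called. Most called genes lie in the upper right, Mrps6, Mrpl18 and Mrpl4 were called in opposite directions, and Mrpl23 fell in WT while Mrpl42 fell in KO.

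The difference of the M1 response between the genotypes was tested as an interaction. It uses the same M1 arrays as the comparison of KO with WT, so it is no separate support for it. Of the 77 genes 12 had a higher and 8 a lower response in KO, or 15.6% and 10.4%, where 15.1% and 14.9% of all genes did. The response of Mrps6 differed by 2.01 ± 0.27 (limma adjusted p = 6.6e-06), as it fell in WT and rose by 1.53 ± 0.19 in KO. Mrpl18 rose by 0.37 in WT and fell by 0.52 in KO, and Mrpl4 rose by 0.50 and fell by 0.29. These 3 genes were the members called in opposite directions in WT and KO, although the WT call of Mrpl18, like that of Mrps6, was lost in 7 fits that left out 1 array, and that of Mrpl18 also with quantile normalization. Mrpl23 and Mrpl54 had a higher response in KO by 1.37 ± 0.26 and 1.17 ± 0.27, and Mrpl42, Mrpl35 and Mrpl36 a lower one by -1.23 ± 0.25, -1.20 ± 0.26 and -1.14 ± 0.16.

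The second activation, by interleukin-4, moved mitoribosomal genes in 1 direction. In WT 13 of 77 rose and 0 fell, which is 16.9%, where 6.30% of all genes rose and 8.91% fell. In KO 13 rose and 0 fell, where 6.88% and 6.23% of all genes did. At an unadjusted p under 0.05, 2 genes were lower in WT and 0 in KO, and quantile normalization called 1 lower in WT. The median difference was 0.17 in both genotypes, and -0.09 and -0.06 over all genes. Quantile normalization gave medians of 0.16 and 0.10, with 16 and 13 genes higher. All 13 genes had 1 sign in the 4 sets in both genotypes, again on the same arrays as the calls. The summed level of the 8 macrophage markers was 9.17 to 9.28 in WT M0 and 8.83 to 9.13 in WT M2. In KO this sum overlapped between M0 and M2. The sums of the neutrophil and dendritic cell markers overlapped between M0 and M2 in both genotypes. The part of these markers in the M2 results was not tested.

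The 13 genes were the same in WT and KO, and with quantile normalization 12 of them were called in both. No array was used in both comparisons, but same-numbered WT and KO arrays of a state share a slide and a set and deviate together. The fit also estimates the spread of each gene from all groups together. For these reasons the lists are not independent of each other. They were Mrpl12, Mrpl15, Mrpl17, Mrpl18, Mrpl36, Mrpl42 and Mrpl47 of the large subunit, Mrps25, Mrps26, Mrps27, Mrps28 and Mrps35 of the small subunit, and Mrps36. That is 7 of 50 and 5 of 26 of the subunits. Promoter windows were at hand for 10 of the 13, and ETS letters stood in 4, YY1 letters in 3, and NRF1 letters and the E-box in 1 each.

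Mrps28, a small-subunit protein, rose most. It was at 2.77, 1.79, 2.49 and 2.44 in WT M0 and 3.78, 3.35, 3.77 and 3.06 in WT M2, and at 2.55, 1.68, 2.22 and 2.14 in KO M0 and 3.47, 3.26, 3.25 and 2.94 in KO M2. M0 and M2 did not overlap in either genotype, with differences of 1.12 ± 0.21 and 1.09 ± 0.21 (limma adjusted p = 9.0e-04 and 0.00138). Mrps25, a small-subunit protein specific to mitochondria, was at 3.12, 2.37, 2.87 and 2.86 in WT M0 and 3.94, 3.55, 3.89 and 3.20 in WT M2. Its KO arrays were at 2.98, 2.26, 2.70 and 2.58 in M0 and 3.65, 3.60, 3.61 and 3.05 in M2. It rose by 0.84 ± 0.19 in both genotypes with no overlap, though by little: the lowest M2 array was the one in the 4th set, and the highest M0 array was replicate 1.

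Mrps36 rose by 0.62 ± 0.11 in WT and 0.57 ± 0.11 in KO (limma adjusted p = 4.6e-04 and 0.00132), the smallest p among the mitoribosomal genes in each genotype. Mrpl36 went from 3.06, 3.02, 3.01 and 3.08 in WT M0 to 3.72, 3.33, 3.83 and 3.52 in WT M2, and from 3.05, 2.87, 3.01 and 2.78 to 3.55, 3.54, 3.31 and 3.35 in KO. Its M0 and M2 arrays did not overlap, and the differences were 0.56 ± 0.11 and 0.51 ± 0.11. Mrpl42 rose by 0.61 ± 0.17 in both genotypes. Mrpl42 and Mrpl36 thus rose with M2 and were also the 2 largest falls in KO M1. Mrpl12 rose by 0.66 ± 0.21 in WT and 0.75 ± 0.21 in KO, with overlapping arrays. The levels were 3.69, 2.86, 3.44 and 3.30 in WT M0 and 4.42, 3.94, 4.09 and 3.49 in WT M2, and within the sets it rose by 0.50 to 0.79 in WT.

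Mrpl17 and Mrps27 rose by 0.63 ± 0.17 and 0.53 ± 0.18 in KO, and Mrpl47 by 0.52 ± 0.14 in WT. Mrps18b was at 0.56 ± 0.20 and 0.58 ± 0.20 and Mrpl3, a core protein of the large subunit, at 0.42 ± 0.15 and 0.14 ± 0.15, none of them called. Mrpl45 was at -0.09 in WT and 0.00 in KO, and Mrpl44 at 0.07 and 0.08.

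The counts with M2 rested on few arrays. In WT 13 became 5 without WT M2 replicate 1, 5 without WT M2 replicate 3, 6 without WT M0 replicate 2, 6 without WT M0 replicate 4 and 8 without WT M0 replicate 3. In KO 13 became 5 without KO M2 replicate 1, 5 without KO M0 replicate 2 and 8 without KO M2 replicate 3. The calls that held without any 1 array were those of the same 4 genes in both genotypes, Mrps28, Mrps25, Mrps36 and Mrpl36, so that the other 9, Mrpl12 and Mrpl42 among them, each depended on at least 1 array. The counts became 23 and 20 with the set as a block, and 3 and 4 when only the 2 groups compared entered the fit.

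**Figure D4:**
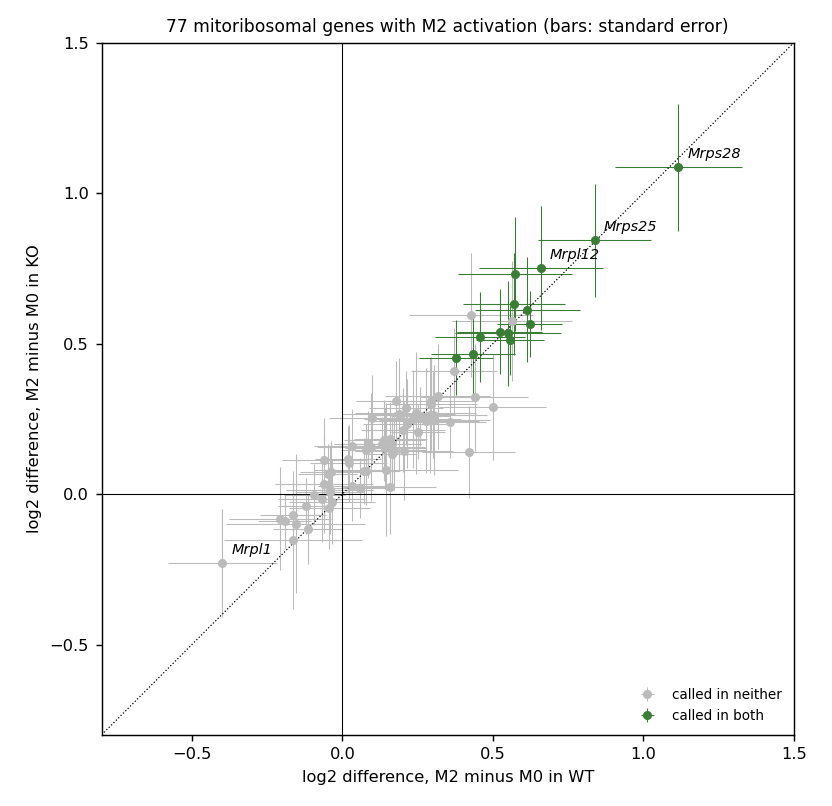
Log2 difference between M2 and M0 of the 77 mitoribosomal genes in WT (horizontal axis) and KO (vertical axis), with bars for the standard error and a dotted line of equal values. The 13 genes called in both genotypes lie in the upper right, with Mrps28 (1.12 and 1.09) outermost, and no gene was called in 1 genotype alone.

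The difference of the M2 response between the genotypes was between -0.28 and 0.17 for all 77 genes. None was called in limma (smallest adjusted p = 1.00), 0 had an unadjusted p under 0.05, and 0.00% of all genes were called.

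Without stimulus, KO and WT mitoribosomal genes lay close together. In M0 0 of 77 were called in limma, where 0.0542% of all genes were (0.00774% higher and 0.0465% lower), and 1 gene, Mrps21 of the small subunit, had an unadjusted p under 0.05 (-0.21). The differences ran from -0.26 to 0.12. They were negative for 73 of 77 genes, including all 26 of the small subunit, a count with no share over all genes beside it. The median was -0.11, against -0.01 over all genes. With quantile normalization the median was -0.06, and in the sets it was -0.19 to -0.02. Arrays did not overlap for 6 genes, 7.79% against 2.23% of all genes, and these were Mrpl2, Mrpl4, Mrpl38, Mrpl43, Mrps15 and Mrps21.

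In M2 0 of 77 were called, where 0.0426% of all genes were (0.0155% higher and 0.0271% lower), and 0 had an unadjusted p under 0.05. Differences ran from -0.31 to 0.13, with a median of -0.08 and set medians of -0.22 to 0.09. They were negative for 64 of 77 genes, likewise without a share over all genes. The groups overlapped for every member, while 2.42% of all genes had no overlap. The standard errors of these differences ranged from 0.08 to 0.24.

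Other genes of ribosomes and mitochondria were set beside these for comparison. The 82 cytosolic ribosomal protein genes, which make up the other ribosome of the cell, moved mostly in 1 direction in M1. In KO M1 against WT M1 80 were higher and 0 lower, with a median of 1.26 (0.84 with quantile normalization). With M1 in WT 70 of them fell and 1 rose. In KO 76 rose and 1 fell, but 2 rose and 25 fell with quantile normalization, so that their direction there depended on the scaling. With M2, 1 rose in WT and 2 in KO, and the counts of falls are not given here. The 78 measured subunits of complexes I, III, IV and V, the complexes into which the products of mitochondrial translation are built, moved in 1 direction with M2. There 41 rose and 0 fell in WT and 36 rose and 0 fell in KO, with a median of 0.38 in both. In KO M1 against WT M1 19 were higher and 9 lower, and 8 higher and 28 lower with quantile normalization.

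**Figure D5:**
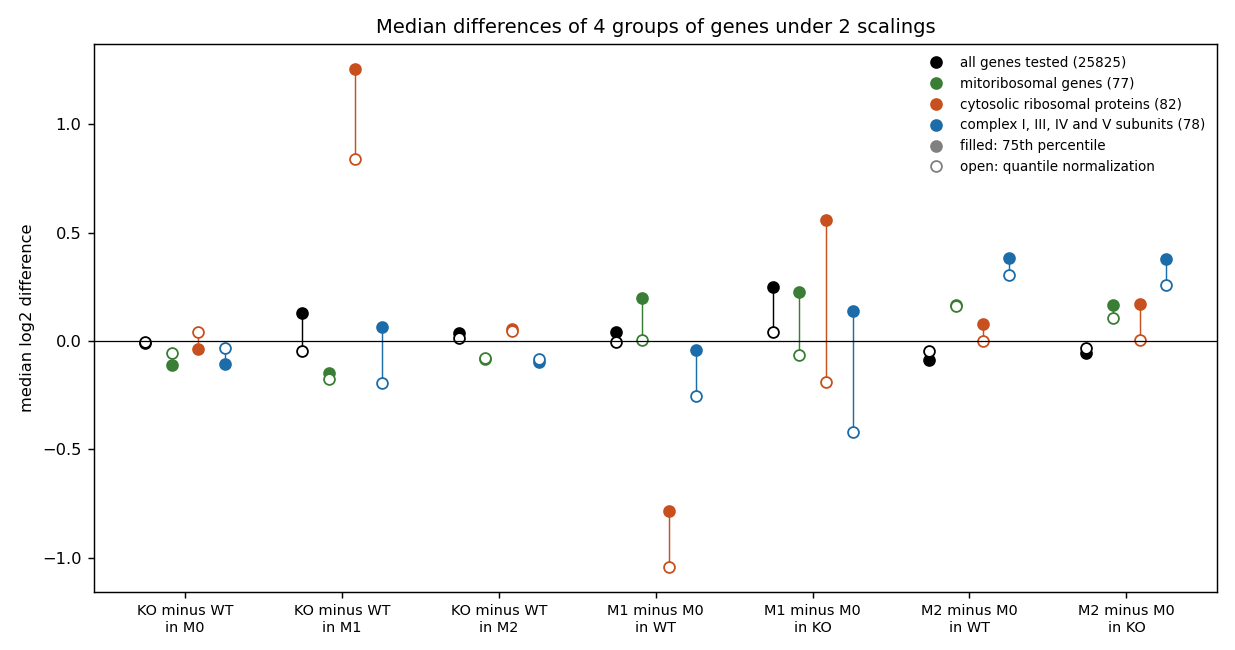
Median log2 difference (vertical axis) of all genes tested, the mitoribosomal genes, the cytosolic ribosomal protein genes and the subunits of complexes I, III, IV and V in 7 comparisons (horizontal axis), with filled points for scaling to the 75th percentile and open points for quantile normalization. The cytosolic genes reach 1.26 for KO minus WT in M1, where the mitoribosomal genes are at -0.15, and the respiratory subunits are at 0.38 with M2, where the mitoribosomal genes are at 0.17.

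Other parts of mitochondrial translation also moved both ways in KO M1, as did all genes tested, of which 22.8% were higher and 21.4% lower. Of 20 mitochondrial aminoacyl-tRNA synthetase genes, which charge tRNAs for the ribosome, 11 were lower and 3 higher, with a median of -0.51 that was -0.55 to -0.48 in the sets. Vars2, for valine, fell by 1.69 ± 0.14, and Wars2, for tryptophan, rose by 1.02 ± 0.25. Among 21 mitoribosome assembly factors 10 were lower and 4 higher, with the GTPase Mtg1 at -1.54 ± 0.17 and Malsu1, which keeps the subunits from joining early, at 0.93 ± 0.11. Of 13 translation factors 6 were lower and 4 higher, with the release factor Mtrf1 at -1.26 ± 0.12 and the recycling factor Mrrf at 1.09 ± 0.14. Of 11 genes of mitochondrial transcription and RNA stability 1 rose and 1 fell. Of 6 ribosomal subunits whose array names lie outside the Mrpl and Mrps series (Ict1, now named Mrpl58, among them) 1 rose, Gadd45gip1, by 1.44 ± 0.33.

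With M2 the synthetase genes had 4 higher and 1 lower in WT and 2 and 1 in KO. The assembly factors had 1 and 1 in WT and 2 and 0 in KO. Over all genes 6.3% rose and 8.91% fell in WT, and 6.88% rose and 6.23% fell in KO. Mpv17l2, an assembly factor of the inner membrane, rose by 0.80 ± 0.20 and 0.77 ± 0.20. The translation factors had 3 higher and 0 lower in WT and 4 and 0 in KO. The elongation factor Gfm1 rose by 0.57 ± 0.13 in WT.

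Regulators of such genes changed in more than 1 pattern. Ppargc1b, a coactivator of mitochondrial genes, rose with M2 by 3.26 ± 0.26 in WT and 3.12 ± 0.26 in KO, and with M1 by 1.03 ± 0.26 and 1.18 ± 0.26. Myc, a transcription factor of growth and ribosome production, rose with M2 by 2.74 ± 0.72 and 2.92 ± 0.72. With M1 it fell by 3.17 ± 0.72 in WT and was at 0.28 ± 0.72 in KO, so that it was higher in KO M1 by 3.31 ± 0.72 (limma adjusted p = 7.2e-04). Nrf1 and Esrra, factors that bind nuclear genes of mitochondria, were lower in KO M1 by -0.72 ± 0.11 and -0.66 ± 0.10, as was Gabpa by -0.41 ± 0.14. Its partner Gabpb1 and the coactivator Pprc1 were higher by 0.72 ± 0.15 and 0.74 ± 0.18. Yy1 was at 0.23 ± 0.10 and Ppargc1a at 0.86 ± 0.90, neither of them called. Among the promoters of mitoribosomal genes, YY1 letters stood in 7 of 19 genes that were lower and 2 of 11 that were higher in KO M1 (36.8% and 18.2%), against 17.6% of all mitoribosomal genes with a window. ETS letters stood in 6 and 1 (31.6% and 9.09%, against 36.8%), NRF1 letters in 0 and 1, and the E-box in 2 and 0.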

How the data were processed

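The deposited scanner files, 1 per array, give the processed signal as an intensity, background-subtracted and detrended but not normalized between arrays, per the file headers. These name Agilent Feature Extraction 10.7.3.1 (the submitters' processing notes name 9.1) and probe coordinates on mm9. Spots flagged as outliers were left out (2 values of the mitoribosomal genes), log2 spots of a probe averaged, and the 75th percentile of the array subtracted (1504 to 2973 units). Probes well above background on at least 4 of 24 arrays were kept (38856 of 56605), and each gene was read by its brightest probe. Between 55.0% and 72.6% of spots were well above background and 0 were saturated; the number of arrays limits the precision.

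Differences were tested in limma 3.58.1 in R 4.3.3 (with statmod 1.5.0), fitting 1 mean for each group and adjusting over 25825 genes. The fit of KO minus WT in M1 was also run on simulated data. The outcome is not given here and is no support for the calls. Genes named were the 6 largest called rises and falls per comparison whose arrays did not overlap (for a response difference, called), plus 12 fixed for their role. Mrps21, Mrps31, Mrpl2, Mrpl37 and Mrpl43 were named after their values were seen. Members and lists were chosen with earlier results of these data known. Same-numbered WT and KO arrays of a state share a slide and a set, and their deviations from the group means correlated in every pair (0.17 to 0.85); across states the numbers do not pair. That the replicates came from separate mice is not stated beyond their being biological replicates. Alternatives covered quantile normalization, normexp, the filter, the probe rule, blocks, the samples fitted and leaving out arrays.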

Additional observations from a re-analysis of the deposited data

Results flagged for a closer look

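The M1 response differed between the genotypes, by the interaction term in limma, for 12 genes named here. It was higher in KO for Mrps6 by 2.01, Mrpl23 by 1.37, Mrpl54 by 1.17, Mrps30 by 0.92, Mrpl15 by 0.91 and Mrps28 by 0.87. The Mrps28 call (adjusted p = 0.0310) was lost in 7 of the fits that left out 1 array. Mrps30 had a value on 3 KO M0 arrays, and the difference was 0.85 to 0.97 in the 3 sets that could be compared. The response in KO was lower for Mrpl42 (-1.23), Mrpl35 (-1.20), Mrpl36 (-1.14), Mrpl18 (-0.89), Mrpl4 (-0.79) and Mrpl28 (-0.64).

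In 13 of 173 groups of 4 arrays, 1 array lay far from the others of its group by Dixon's test, where chance flags about 1 in 20 groups. The groups were those of 28 genes and of the median of all 77. The levels of these arrays were 1.70 for Mrpl1 in WT M1 replicate 1, 2.28 for Mrpl15 and 3.05 for Mrps25 in KO M2 replicate 4, 4.11 for Mrps36 in KO M2 replicate 1, and 2.57 for Mrpl17 and 4.48 for Mrps15 in WT M1 replicate 3. In KO M1 replicate 3 they were 2.01 for Mrpl18, 2.80 for Mrpl39 and 4.26 for Mrpl54. In M0 they were 1.56 for Mrpl38 and 4.65 for Mrpl4 in WT replicate 1, 2.80 for Mrpl54 in WT replicate 2 and 2.07 for Mrpl39 in KO replicate 2.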

How the results depend on the processing

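With quantile normalization the genes higher with M1 numbered 17 in WT and 17 in KO and those lower 22 and 28, and 1 gene was lower with M2 in WT. Mrpl2, Mrpl37 and Mrpl43, called higher with M1 in KO, were then at -0.17, -0.027 and -0.19, and Mrps31, called higher in KO M1, was at -0.056 with the mean of its probes. Without the filter on dim probes 7 genes were higher with M2 in WT, and with the mean of the probes of a gene 5 were lower with M1 in WT. With the set as a block 9 were lower with M1 in WT and 23 and 20 higher with M2 in WT and KO. Fits of only the groups compared gave 3 and 4 genes higher with M2, and 11 were lower with M1 in WT without the 4th set. Leaving out 1 array gave 5 to 19 genes higher with M2 in WT and 5 to 17 in KO, 12 to 19 lower in KO M1, and 2 to 7 lower with M1 in WT. The cause of these shifts was not tested.

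With a replicate block KO exceeded WT in M1 for 19 mitoribosomal genes and lay below it for 29. No count moved past 1.5 times in any comparison with this block. For activation and for response differences the block joined equal replicate numbers of different states, which do not pair. Its counts there are therefore no check of a pairing. All other counts stayed within 1.5 times under every alternative run. Of the calls of single genes refitted under these alternatives, 2612 kept their direction and call, 349 lost the call and 4 changed sign.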
